A study of Mus musculus with 80 samples.

Results

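Between 48 and 72 h after mouse embryonic stem cells (ESCs) of the line E14 were moved from serum to 2i, DNA methylation was compared in 2 libraries per time point, which are 4 of the 80 samples of the series. The genome was divided into 500-bp tiles, and a tile entered when it held 20 or more methylation calls at 3 or more CpG positions in all 4 libraries. On the 19 autosomes 68676 tiles met this rule, 13.2% of the 518852 tiles that held a call in any of the 4. A call is 1 sequenced cytosine read as methylated or unmethylated, and a tile level is the percent of its calls that were methylated.

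The study followed expression, DNA methylation and dimethylation of lysine 9 on histone H3 (H3K9me2) while ESCs moved from serum to 2i. E14 carries the wild-type genotype in the labels. LIF was present throughout. The starting medium was DMEM with fetal calf serum, and 2i is a serum-free medium (N2B27) named for its pair of inhibitors, PD0325901 against MEK and CHIR99021 against GSK3. The labels of the 48 and 72 h groups give a different time in 2i and no batch, and they do not say whether the 2 replicates of a group were separate cultures, so the spread between them may be technical. UHRF1 WT, labelled wild-type, and UHRF1 KO, labelled UHRF1-/-, both on the E14 background, serve for comparison at the same hours. In the floxed lines of the study, recombination was induced with a tamoxifen-inducible Cre before the transfer. The labels do not say whether UHRF1 WT carries the floxed alleles, and the deleted gene was not measured in these libraries.

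In proliferating cells methylation at CpG dinucleotides is copied after each replication by DNMT1, which UHRF1 brings to hemimethylated DNA, while DNMT3A and DNMT3B add methyl groups to unmethylated sites and TET enzymes oxidise them. ESCs in serum are highly methylated outside CpG islands, and ESCs in 2i lose most of this methylation over days. Reduced representation bisulfite sequencing (RRBS) reads fragments cut at CpG-rich sites, so CpG islands, which are mostly unmethylated, are strongly represented among its tiles.

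The 4 libraries held 11936170 to 17168854 calls, and a tile had a median of 64 to 91 calls in a library. Replicates of 1 time point differed by more than counting noise (chi-square per tile 1.36 at 48 h and 1.47 at 72 h), so none was a copy of another. Of mitochondrial calls, 0.556% to 0.830% were read as methylated at 48 h and 0.591% to 0.595% at 72 h. RNA-seq of E14, made at 24 and 72 h but not at 48 h, was checked for cell identity. All 10 ESC markers (among them Pou5f1, Sox2, Nanog, Klf4, Esrrb and Zfp42) lay above the 75th percentile of genes at both times. None of the 4 primed or early lineage markers did, nor any of the 4 primitive endoderm markers. Of 3 trophectoderm markers Tfap2c did so, which ESCs also express, and of 4 fibroblast markers Vim.

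Mean tile methylation was lower at 72 h than at 48 h by 5.55 percentage points. The libraries of 48 h stood at 33.95% and 34.09% and those of 72 h at 28.67% and 28.28%. Group means were thus 34.0% ± 0.101 and 28.5% ± 0.278 (SD, n = 2), and both 72 h libraries lay 5.28 points or more below both 48 h libraries. With 2 libraries against 2 the exact two-sided permutation test cannot go below p = 0.333, the value it gave here. The 72 h level was 83.7% of the 48 h level. The difference of 72 h from 48 h depended on which tiles entered and how they were weighted. It was -2.78 points in tiles with 50 or more calls in every library. With calls pooled over the 68676 tiles, where each tile counts by its calls, it was -1.85 points, with 85.15% left. Tiles low in serum were deeper. Median calls in the shallowest library were 189 under 5% in serum and 36 at 80% or more. At 80% or more in serum the difference was -14.03 points, and -13.04 points with 50 or more calls, also in the serum libraries. The part of depth itself was not tested. At the 858045 autosomal positions with 5 or more calls in all 4 libraries the means were 18.4% and 15.4%, which left 83.4%.

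The loss took the form of a shift in the highly methylated tiles. Tiles at 80% or more made up 16.4% and 16.7% of all tiles in the 48 h libraries and 4.56% and 4.70% in the 72 h libraries. The share of tiles between 5% and 60% went from 25.6% and 25.7% to 34.96% and 35.99%. Tiles under 5% stayed at 41.9% and 41.7% against 42.2% and 42.2%. Among bins of 5 points above 20%, the fullest was that of 80% to 85% at 48 h and that of 60% to 65% at 72 h, in both replicates. Single positions showed the same shift: those at 80% or more went from 10.5% and 10.4% of the shared positions to 4.58% and 4.95%.

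**Figure D1:**
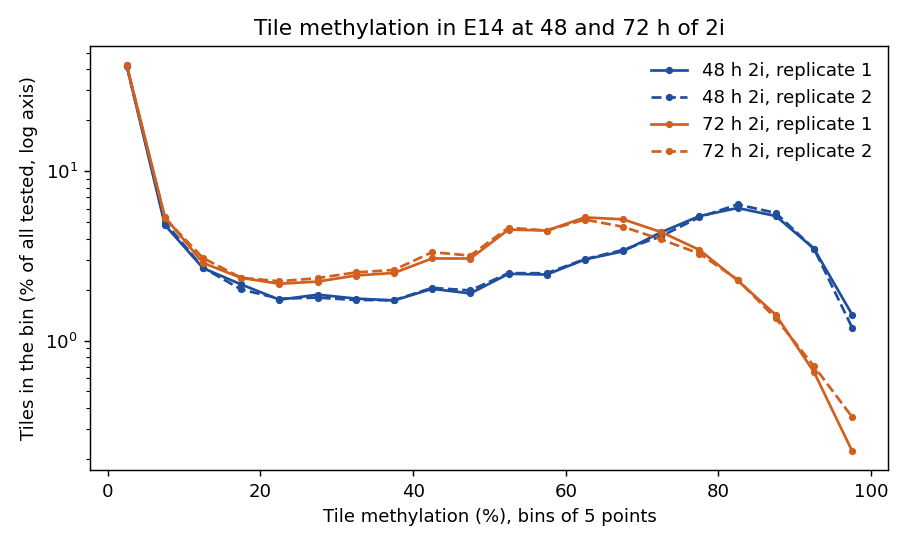
Share of the 68676 tested tiles (y axis, percent, log scale) in each 5-point bin of tile methylation (x axis, percent), with 1 line per library, solid for replicate 1 and dashed for replicate 2. The lines of both replicates lie close together, and above the lowest bins the peak at 80% to 85% in the 48 h libraries is replaced by one at 60% to 65% in the 72 h libraries.

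To set the tiles in order without the compared libraries, they were classed by their mean in the 2 serum libraries of E14, which passed the coverage rule at 68090 of the tiles. Tiles methylated in serum lost part of their 48 h level. Tiles under 5% in serum read 1.38% at 48 h and 1.36% at 72 h, beside 0.556% to 0.830% of mitochondrial calls. How much of such low levels came from incomplete conversion was not tested. The 17159 tiles at 80% or more in serum stood at 81.5% and 81.7% at 48 h and at 68.1% and 67.1% at 72 h. The 8022 tiles at 60% to 80% went from 62.5% and 62.7% to 52.0% and 51.1%. In both classes the 2 times did not overlap, with losses of 14.03 and 11.1 points.

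The share of the 48 h level that was still present at 72 h was similar in these classes, 82.8% ± 0.863 and 82.3% ± 1.05 (SD carried over from the 2 + 2 libraries). It was 85.0% ± 1.15 in the 5126 tiles at 40% to 60%, where levels went from 42.0% to 35.7%, and 88.6% ± 1.05 in the 4159 tiles at 20% to 40%, where they went from 23.3% to 20.7%. In the 6016 tiles at 5% to 20% it was 97.4% ± 1.22, and in the 27608 tiles under 5% it was 98.7% ± 3.25, with levels of 1.38% and 1.36%. Levels this near the floor give the latter share little weight. Intervals of 2 SD around these shares overlapped among the 3 classes from 40% upward. That of the class at 20% to 40% lay above those of the 2 highest classes, and that of the class at 5% to 20% lay above all 4 classes from 20% upward. With classes set on the 24 h libraries, all but the 2 classes from 40% to 80% moved by more than their SD.

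**Figure D2:**
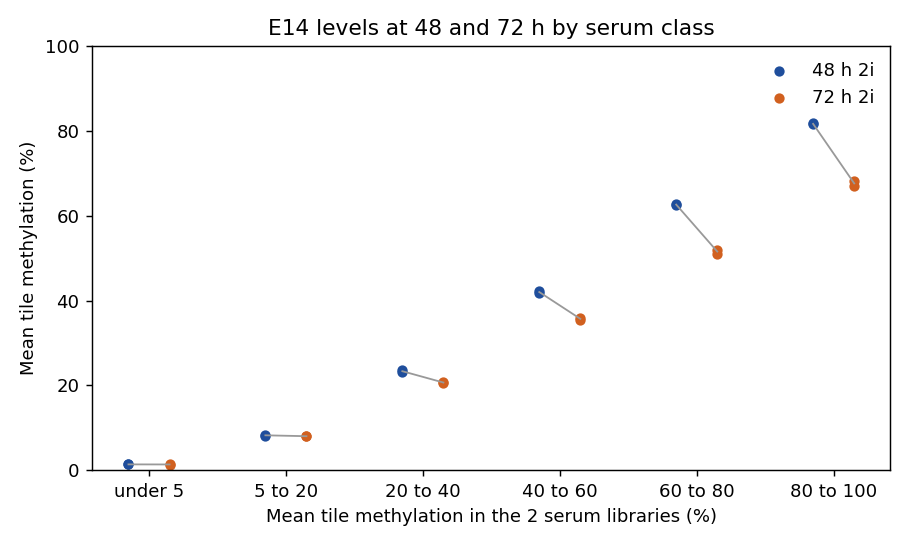
Mean tile methylation (y axis, percent) in each library at 48 h (blue) and 72 h (orange) of 2i, for tiles grouped by their mean in the serum libraries (x axis, percent), with a grey line between the group means. Levels were lower at 72 h in the 4 classes from 20% upward, by 14.03 points in the highest, and moved by 0.21 points or less in the 2 lowest.

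Single tiles were then tested on their calls with a quasi-binomial model, and tiles were called where the adjusted p (Benjamini-Hochberg) was under 0.05 and the group means lay 20 points or more apart. As first planned, with all residual degrees of freedom counted, the fit called 0 tiles (14760 at an unadjusted p under 0.05). The counts given here come from a rule for these degrees of freedom that was chosen after that result had been seen. By this fit and the full rule 3857 tiles were lower at 72 h, which is 5.62% of all tested, and 65 were higher, which is 0.0946%. At any size of difference 8.89% of tiles passed on p alone. Of the called tiles 3844 lower and 64 higher ones did not overlap between the times, beside 40.3% and 9.35% of all tiles. The calling rule used the same 4 libraries, so these counts largely restate it. The called lower tiles went from a median of 82.0% at 48 h to 54.7% at 72 h, and 155 of them ended under 20%. In serum 94.1% of those with a serum level were at 60% or more. The rule favours such tiles, since a tile under 20% cannot fall by 20 points. By serum class 16.5% of the tiles at 80% or more in serum were called.

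These counts rest on 1 dispersion that the fit gave to all tiles (1.46), so the spread of a tile's own replicates does not enter its p. The limma fit on log2 ratios of the calls called 0 tiles, with 10380 at an unadjusted p under 0.05 beside 15866 in the quasi-binomial fit. Without 48 h replicate 1 or 2 the fit called 1993 or 1302 tiles, and without 72 h replicate 1 or 2 it called 1846 or 2064. Tile calls are therefore given as an ordering of tiles, and the class means above carry the comparison.

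The 10 largest falls among called tiles with 40 or more calls in every library and no overlap ranged from 39.2 to 48.5 points. Tiles are given on the build NCBIM37, for which no gene annotation was used here. The tile chr3:96210001-96210500 stood at 87.0% and 71.9% at 48 h and at 26.6% and 35.3% at 72 h (51 to 77 calls per library, adjusted p 5.4e-08 in the quasi-likelihood F test). Its 2 serum libraries were at 71.8% and 75%, close to its 48 h level, and it lost more than any other tile of this rule.

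The tile chr8:49888501-49889000 went from 67.4% and 58.5% to 24.0% and 14.6%, the tile chr14:61513501-61514000 from 71.4% and 82.3% to 40.4% and 26.9%. On chromosome 2, chr2:125120501-125121000 went from 77.4% and 83.9% to 43.6% and 35.2%. The tile chr17:28966001-28966500 started lower, at 52.6% and 59.8%, and ended at 18.4% and 15%. In each of these 5 tiles the loss was shared by all positions that had 5 or more calls in every library: 7 of 7, 3 of 3, 6 of 6, 6 of 6 and 5 of 5 positions lay lower at 72 h in both libraries. The same calls chose these tiles, so the position counts largely restate the choice. Within a tile these positions spanned only 23 to 96 bp, so they are not separate measurements.

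The remaining 5 tiles of this rule fell by 39.2 to 40.7 points and lie at chr9:119932501-119933000, chr7:25784001-25784500, chr7:53250501-53251000, chr17:5017001-5017500 and chr10:80434501-80435000. Not every position was lower in all of them: 5 of 6 were at chr7:25784001-25784500 and 6 of 7 at chr10:80434501-80435000, while in the other 3 tiles all were. Replicates differed most at chr7:25784001-25784500, where the 72 h libraries read 37.9% and 66.2%. The tile chr7:53250501-53251000 read 47.3% and 42.2% at 72 h but 82.7% and 71.7% in the 96 h libraries, which were not used to choose it. All 10 tiles held few positions, 4 to 9 in the median library.

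The 5 largest rises ranged from 28.0 to 41.2 points. The tile chr2:165158501-165159000 rose from 30% and 16.7% to 63.2% and 65.9%. The tile chr1:5009001-5009500 rose from 14.3% and 6.98% to 42.3% and 50.8%. The remaining 3 rose from below 10% in both 48 h libraries.

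The neighbouring tiles chr12:81269001-81269500 and chr12:81269501-81270000 both rose. The first went from 3.03% and 3.52% to 31.3% and 47.9% with 121 to 227 calls, and the second from 0% and 6.36% to 28.7% and 42.5% with 200 to 247 calls. The tile chr17:59152501-59153000 went from 7.07% and 8.33% to 40.1% and 31.4%. Of the positions with 5 or more calls in every library, 10 of 11, 12 of 12 and 9 of 11 lay higher at 72 h in these 3 tiles. Here too the same calls chose the tiles, and the positions of a tile spanned 46 to 189 bp.

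All 5 of these tiles were high in the 24 h libraries, which the comparison did not use, and 4 of them, all but chr2:165158501-165159000, were low in serum. At chr12:81269001-81269500 the serum libraries read 0.568% and 2.26%, the 24 h libraries 30.9% and 49.7%, and the 96 h libraries 3.57% and 0.820%. At chr17:59152501-59153000 the serum libraries read 12.7% and 12.4%, the 24 h libraries 56.6% and 53.3% and the 96 h libraries 0.881% and 3.14%. The order at both was thus low in serum, high at 24 h, low at 48 h, high at 72 h and low again at 96 h.

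The 5 tiles with most calls among the 1392 that stayed at 80% or more in all 4 libraries had 486 to 1906 calls per library. Library medians over all tested tiles were 64 to 91 calls, so these 5 are unusually deep. At chr6:59983001-59983500, 1212 to 1906 calls fell on a median of 6 positions. Whether reads piled up in these tiles was not tested. The tile chr6:59983001-59983500 read 90.9% and 89.0% at 48 h and 87.4% and 85.6% at 72 h. The tile chr2:98507001-98507500 read 91.2% and 90.3%, then 87.0% and 86.8%. All 5 tiles read lower at 72 h, with differences of -7.83 to -3.46 points (adjusted p 0.000297 to 0.0579 in the quasi-likelihood F test). The rule of 80% or more used these same 4 libraries and left no room for a large fall. The small size of these differences thus restates the choice. The times overlapped in none of these 5 deep tiles. Of all 1392 tiles 659 did not overlap between the times, beside 40.3% lower and 9.35% higher of all tested tiles. The tile chr10:12810501-12811000, with 52 positions, read 87.4% and 88.0% at 48 h and 84.2% and 81.7% at 72 h.

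**Figure D3:**
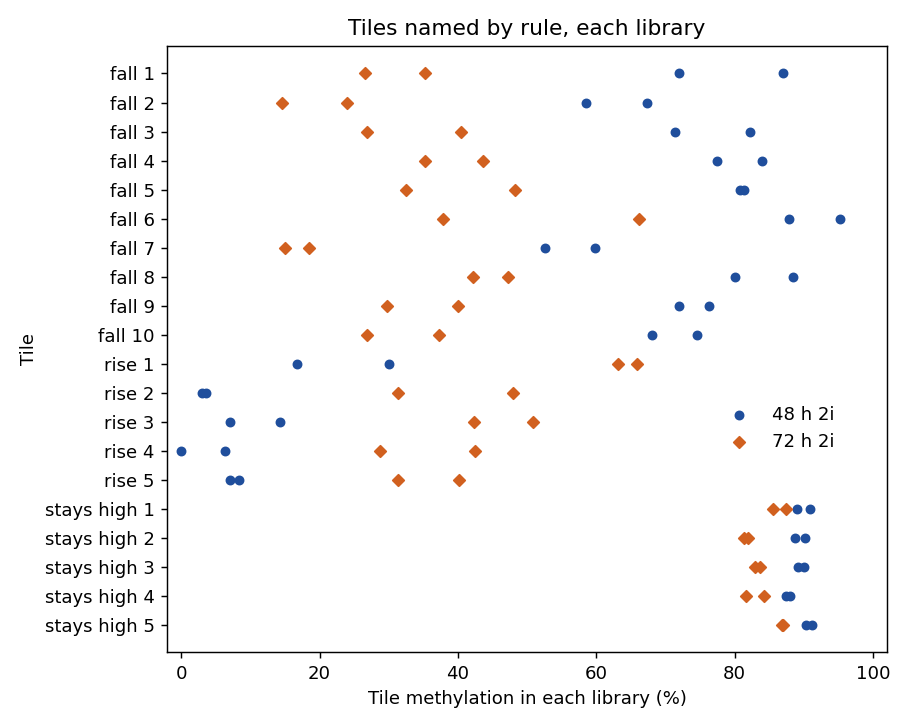
Methylation (x axis, percent) of the 10 tiles with the largest falls, the 5 with the largest rises and the 5 deepest that stayed at 80% or more (y axis, in the order of the rule), with 1 point per library, circles for 48 h and diamonds for 72 h. Falls of 39.2 to 48.5 points and rises of 28.0 to 41.2 points stand beside differences of -7.83 to -3.46 points in the last 5 tiles. The plotted libraries chose all of these tiles, so the large and small sizes of the differences largely restate the choice.

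At least 1 called tile lay in 3755 of the 38485 windows of 10000 bp that held a tested tile, and 3594 of these windows held 1 only. Since 68676 tested tiles lay in 38485 windows, a window had few tiles that could be called. The window with most, chr11:75260001-75270000, had 4 called tiles of 7 tested, and its tile means went from 58.3% and 62.3% to 47.1% and 42.0%. Of its 7 tiles 5 fell, and the least negative step was 0.578 points. The compared libraries chose this window and those below by their called tiles, so lower means at 72 h restate the choice. The windows chr7:26110001-26120000 and chr11:97580001-97590000 had 3 called tiles each, of 3 and of 5 tested, and all their tested tiles fell. Tile means went from 76.2% and 77.6% to 40.2% and 51.6% in the first of these and from 74.5% and 76.8% to 51.1% and 51.7% in the second.

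Across the 19 autosomes the step was nearly even. Among tiles at 40% or more in serum, the 48 h level kept at 72 h ran from 81.7% on chromosome 11 to 84.6% on chromosome 3. On all 19 both 72 h libraries lay below both 48 h libraries. Neighbouring tiles moved alike to a modest degree. Over 2154 pairs of adjoining tiles at 40% or more in serum, which share libraries and often fragments, Pearson's r of the steps was 0.297. The neighbour was called for 16.2% of the called tiles in these pairs and for 9.92% of the others.

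Tiles with more calls kept more of their 48 h level. Among tiles at 60% or more in serum, the 13767 with 20 to under 40 calls in the shallowest library kept 82.0% ± 0.931, the 9121 with 40 to under 80 calls 82.9% ± 0.912, the 2132 with 80 to under 160 calls 85.6% ± 0.808 and the 161 with 160 or more calls 91.0% ± 0.880. In the last of these, levels went from 71.2% and 72.0% to 65.4% and 64.9%. The number of positions moved with depth, and its part in this order was not tested.

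Tiles with few CpG positions lost more than tiles with many, at like serum levels. Among tiles at 80% or more in serum, the 8760 with 3 to 4 positions kept 82.2% ± 0.812 of their 48 h level, and the 832 with 10 to 19 positions kept 85.7% ± 1.10. Levels were 81.6% and 82.4% at 48 h but 67.1% and 70.6% at 72 h. Calls per tile rise with positions, from a median of 30 to 93.5 in the shallowest library. Within tiles of 40 to 79 calls in the shallowest library, those with 3 to 6 positions kept 82.7% ± 0.738 and those with 10 to 19 positions kept 85.4% ± 1.48, which is the same order, with a gap of less than 2 times the larger SD. Depth still differed within that range, with medians of 50 and 64 calls in the shallowest library.

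Steps of single tiles varied by more than the replicates did. In the 1092 tiles at 60% or more in serum with 100 or more calls in every library, the step had a median of -9.88 points, with 10% of tiles below -18.8 and 10% above -0.629. Its SD over tiles was 7.23 points, beside 4.85 points that the differences between replicates give. Across these tiles, which are not replicates and share libraries, the step from 48 h replicate 1 to 72 h replicate 1 and that between the replicates 2 had a Pearson's r of 0.393. In all 25181 tiles at 60% or more in serum, most of them shallower, the SD of the step was 9.41 points beside 7.67 points from replicates, and Pearson's r was 0.199.

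H3K9me2 was read from ChIP followed by bisulfite sequencing, as bound over input calls in windows of 10000 bp. Per the paper, these libraries came from serum cells and from cells grown long term in the inhibitor medium. H3K9me2 at 48 and 72 h was thus not measured, and the 2i classes below are those of the long-term cells. Methylated tiles in windows with most H3K9me2 in long-term 2i kept slightly more methylation. Among tiles at 40% or more in serum, the 1398 in the top 10% of windows went from 76.1% ± 0.129 to 65.0% ± 0.736 and the 27085 in other windows from 69.6% ± 0.158 to 57.7% ± 0.624 (SD, n = 2). They kept 85.4% ± 0.979 and 82.8% of the 48 h level, with losses of 11.1 and 11.9 points. With windows ranked on the serum libraries the order turned: the 2170 tiles of the top windows lost 13.9 points and kept 81.8%, the others lost 11.7 points and kept 83.1%. Levels in serum and at 48 h also differed between these classes, and their part in the difference was not tested.

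The 2 neighbouring steps were compared over the 55777 tiles that passed in all 12 E14 libraries. They share the libraries of 48 h or 72 h with the step described here, so values are given side by side. Mean tile methylation of the 24, 48, 72 and 96 h groups was 35.3% ± 0.660, 29.5% ± 0.102, 24.9% ± 0.240 and 23.8% ± 0.0410, respectively (SD, n = 2). The serum libraries averaged 33.1% ± 0.433, below those of 24 h, and the 168 h libraries 15.5% ± 0.130. The losses were 5.76 points from 24 to 48 h, 4.67 points from 48 to 72 h and 1.08 points from 72 to 96 h. In tiles at 40% or more in serum they were 10.2, 11.6 and 0.555 points. Serum and 24 h stood at 77.15% and 79.7% in these tiles, so in both sets the loss from 24 to 48 h starts above serum. From 96 to 168 h, a longer interval, the change was -8.275 points over all tiles and -19.2 points in these.

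Tile by tile, 1234 tiles were called for a step from 48 to 72 h that differed from that of 24 to 48 h. The rule was an adjusted p under 0.05 (quasi-likelihood F test, 1 dispersion for all tiles) and steps 20 points or more apart. The test compares steps in log-odds, the log of methylated over unmethylated calls. The 20 points are a separate cutoff on group means. Steps equal in points can differ in log-odds where levels differ. As first planned, with all residual degrees of freedom counted, the test called 897, the limma fit on log2 ratios called 0 (6034 at an unadjusted p under 0.05), and without 48 h replicate 1 or 2 it was 551 or 447. In 1144 of them, 2.05% of those tested, the later loss was smaller or a rise, and in 90, which is 0.161%, it was larger. The 1144 tiles averaged 40.01% in serum and then 62.6%, 29.2%, 37.2% and 22.4% in the 24, 48, 72 and 96 h libraries, of which those of 24, 48 and 72 h chose them. Against the step from 72 to 96 h, 967 tiles lost more from 48 to 72 h (1.73%) and 358 lost less or rose (0.642%). These 1325 were 919 as first planned and 0 with limma (6589 unadjusted), 858 and 692 without 48 h replicate 1 and 2, and 352 and 528 without 72 h replicate 1 and 2. Over the 48, 72 and 96 h libraries the 967 tiles averaged 80.9%, 54.6% and 69.7%, and the 358 tiles 25.1%, 39.2% and 16.6%. These libraries chose both sets, so the low or high value at 72 h restates the choice. In the serum and 24 h libraries, which did not, the 967 tiles averaged 84.5% and 82.4% and the 358 tiles 33.1% and 56.5%.

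**Figure D4:**
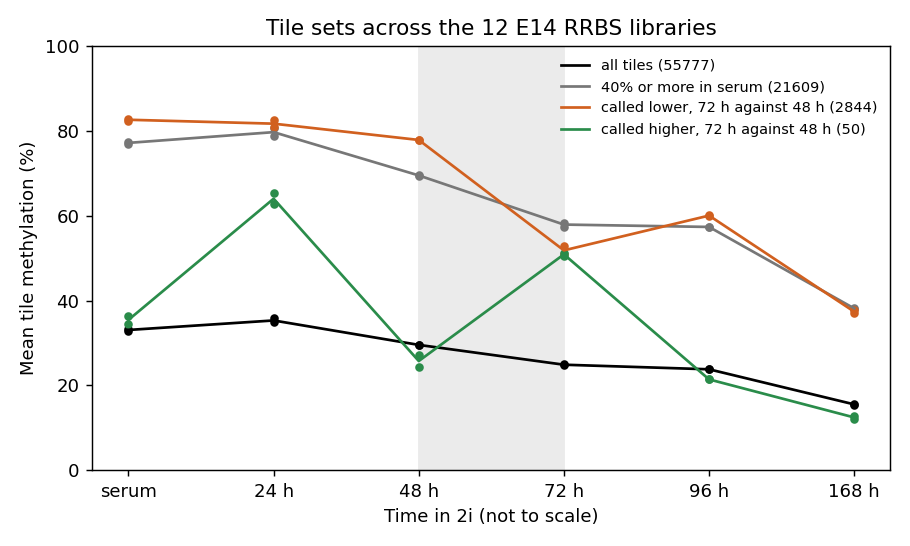
Mean tile methylation (y axis, percent) in the 12 E14 libraries by time in 2i (x axis, not to scale), with a point per library and a line through the group means, for all 55777 tiles, those at 40% or more in serum, and the tiles called lower or higher between 48 and 72 h (grey band). The 48 and 72 h values chose the last 2 sets, and outside them the tiles called higher peak at 24 h (64.0%) between serum (35.4%) and 96 h (21.4%).

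Of the 65 tiles called higher, 50 passed in all 12 libraries. Their means were 34.5% and 36.3% in the serum libraries, 62.7% and 65.3% after 24 h, 21.4% and 21.4% after 96 h and 12.1% and 12.8% after 168 h, and none of these libraries was used to choose them. All 50 were lower at 96 h than at 24 h, as were 78.7% of all 55777 tiles and 96.7% of those at 40% or more in serum. The 2844 called lower tiles averaged 82.6% in serum, and 81.7%, 60.02% and 37.4% in the 24, 96 and 168 h libraries. Their 72 h mean, 51.8%, lay below that of 96 h, but the 72 h libraries were used to choose them.

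Tiles were also sorted by 24 h minus serum, libraries outside the comparison. The 47489 tiles within 10 points of serum at 24 h went from 27.1% to 22.5%, a step of -4.56 points. The 2054 tiles that were 20 points or more higher at 24 h than in serum stood at 34.4% and 34.7% at 48 h and at 34.7% and 34.4% at 72 h, a step of 0.0165 points. In the 96 h libraries they read 23.6% and 23.4%. Of these tiles 38 were called higher (1.85%) and 37 lower (1.80%), beside 50 and 2844 of all 55777. Their serum mean was 39.9%. Of all tested tiles at 20% to 40% in serum 1.11% were called lower and 28 of 4159 higher, and of those at 40% to 60% 3.43% were called lower and 15 of 5126 higher. The 1209 tiles that were 10 to 20 points lower at 24 h than in serum went from 72.4% to 57.7%, and 20.5% of them were called lower. Their serum mean was 82.5%, and of all tiles at 80% or more in serum 16.5% were called lower. The 4950 tiles that were 10 to 20 points higher at 24 h went from 40.2% to 35.2%, a step of -5.01 points. Among the 14877 tiles whose mean of serum and 168 h lay between 10% and 60%, the steps were -14.5 points in the 401 tiles 10 to 20 points lower at 24 h, -10.75 in the 8635 within 10 points, -5.98 in the 3955 that were 10 to 20 points higher and -0.454 in the 1850 that were 20 or more higher. The 36 tiles 20 points or more lower stepped by -14.3 points.

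Across these 14877 tiles, the difference of 24 h from serum and that of 72 h from the mean of 48 and 96 h had a Pearson's r of 0.439 and a Spearman's rho of 0.414. The 2 differences share no library, but tiles share each library's depth and base composition, and they are not replicates. Over all 55777 tiles the values were 0.335 and 0.237. A positive value says only that tiles higher at 24 h than in serum had higher 72 h levels relative to that mean, not that they rose from 48 to 72 h. Time and library cannot be told apart here, since each time point was 1 pair of libraries.

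The step was then compared with that of UHRF1 WT over the same hours, in 59139 tiles that passed in all 8 libraries. Over all shared tiles the mean loss was close in size. E14 went from 30.5% and 30.7% to 25.9% and 25.5%, and UHRF1 WT from 37.5% and 37.6% to 32.7% and 32.8%. The step of E14 minus that of UHRF1 WT was -0.144 points (exact two-sided permutation of the lines within each time, p = 0.833). Its sign was not stable, since it was 0.460 points in tiles with 50 calls per library. E14 kept 83.9% of its 48 h level and UHRF1 WT 87.3%. In the 23632 tiles at 40% or more in E14 serum the losses were 11.8 and 9.15 points, with 83.05% and 88.9% kept (difference of the steps -2.65 points, exact permutation p = 0.556). Among 36 arrangements the smallest p is 0.0556, and arrangements that mix lines of different level give large values.

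By E14 serum class the steps in points were close in some classes and lay apart in others. In the 6306 tiles at 60% to 80% E14 lost 10.96 points and UHRF1 WT 10.9 points (difference of the steps -0.0844 points, exact permutation p = 1), and in the 26654 tiles under 5% the difference was 0.203 points. In the 13184 tiles at 80% or more E14 lost 13.96 points, from 81.65% to 67.7%, and UHRF1 WT 7.51 points, from 88.5% to 81.0%. In the 4142 tiles at 40% to 60% E14 lost 6.21 points and UHRF1 WT 11.8 points, a difference of 5.55 points. In the 3441 tiles at 20% to 40% E14 lost 2.67 points and UHRF1 WT 10.7 points, from 44.6% to 34.0%. In the 5306 tiles at 5% to 20% E14 lost 0.232 points and UHRF1 WT 4.28 points, from 15.7% to 11.4%. The differences of the steps at 80% or more, 20% to 40% and 5% to 20% were -6.45, 8.01 and 4.04 points (exact p 0.444, 0.556 and 0.333), many times the SD of the libraries but not past what this permutation can call. Under 5%, E14 went from 1.33% to 1.31% and UHRF1 WT from 1.22% ± 0.0264 to 1.00% ± 0.112 (SD, n = 2). Levels this near the floor give the shares kept in this class little weight. From the lowest class to the highest, E14 kept 98.8%, 97.15%, 88.5%, 85.2%, 82.5% and 82.9% on these tiles. UHRF1 WT kept 82.0%, 72.7%, 76.1%, 82.1%, 86.5% and 91.5%. UHRF1 WT was already the more methylated line at 48 h in the 5 classes from 5% upward, so the same class does not stand for the same starting level.

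**Figure D5:**
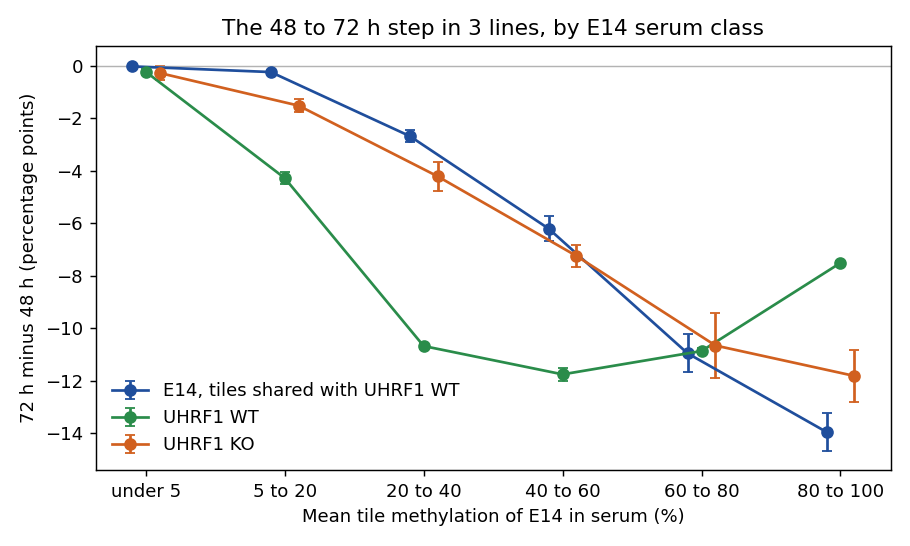
Change of mean tile methylation from 48 to 72 h (y axis, percentage points) in E14 (blue) and UHRF1 WT (green) on their shared tiles and in UHRF1 KO (orange) on its own shared tiles, by E14 level in serum (x axis, percent). Error bars are the SD carried over from 2 + 2 libraries, and UHRF1 WT lost most in the class of 40% to 60% while E14 lost most in that of 80% or more.

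Of the tiles called lower in E14, 3132 were covered in UHRF1 WT, and 91.8% of them were lower there too. This share was near the 90.6% of all covered tiles at 40% or more in E14 serum. Their median step in UHRF1 WT was -9.35 points, beside -8.49 for the latter. Of the tiles called higher in E14, 54 were covered, 15 of which were higher at 72 h in UHRF1 WT, and the median step of the 54 there was -6.00 points. Over the 23632 covered tiles at 40% or more in serum, which are not replicates, Pearson's r between the steps of the lines was 0.0471.

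Steps of single tiles differed between E14 and UHRF1 WT in 168 of 59139 tiles by the same rule. The test again compares steps in log-odds, and the 48 h levels of the lines differed. In 150 of them E14 lost less or rose (0.254%), and in 18 it lost more (0.0304%). As first planned the test called 26, limma called 0 (4016 at an unadjusted p under 0.05), and without single libraries the count was 70 to 190. It fell by over 1.5 times without either 48 h library of E14 or of UHRF1 WT, without E14 72 h replicate 1 and without UHRF1 WT 72 h replicate 1, where it was lowest. A test of a difference between steps misses more than that of 1 step, so tiles outside these counts are not shown to move alike. The libraries compared chose the tiles. The 150 tiles went from 28.4% to 41.9% in E14 and from 61.7% to 43.9% in UHRF1 WT. The 18 tiles went from 77.5% to 47.8% in E14 and from 72.6% to 77.8% in UHRF1 WT.

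UHRF1 KO had shallow 48 h libraries (4025425 and 3603995 calls), so 29963 tiles were shared, of which 21314 were under 5% in E14 serum. E14 went from 13.2% and 13.3% to 11.5% and 11.4% there and UHRF1 KO from 10.1% and 10.3% to 8.17% and 7.96%. The step of E14 minus that of UHRF1 KO was 0.434 points (exact two-sided permutation p = 0.556). In the 4814 tiles at 40% or more in E14 serum, E14 went from 67.2% ± 0.0729 to 57.2% ± 0.651 and UHRF1 KO from 50.9% ± 0.257 to 40.5% ± 0.862 (SD, n = 2). The losses of 9.94 and 10.4 points left 85.2% and 79.5% of the 48 h levels.

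By the same rule, with steps tested in log-odds, single tiles differed in step between E14 and UHRF1 KO in 19 cases. In 15 E14 had a smaller loss or a rise (0.0501%), and in 4 a larger loss (0.0133%). As first planned the test called 1 tile and limma 0 (3193 at an unadjusted p under 0.05), and without single libraries the count was 5 to 20. It fell by over 1.5 times without E14 48 h replicate 1 or 2, E14 72 h replicate 2, UHRF1 KO 48 h replicate 2 or UHRF1 KO 72 h replicate 1, and was lowest without E14 48 h replicate 2. The 4, named after their values were seen, lie at chr10:79769001-79769500, chr12:111558001-111558500, chr16:22572501-22573000 and chr16:95940501-95941000. At the last of these E14 went from 87.4% to 68.2% and UHRF1 KO from 43.9% to 58.1%.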

How the data were processed

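RRBS was done by the authors, and they deposited, per CpG position, the percent methylated with counts of methylated and unmethylated calls (per the labels, Trim Galore 0.3.5 and Bismark 0.12.3, NCBIM37). The counts were used, and the deposited percent values only rest on them. For E14 RNA the authors deposited log2 values per gene, used for markers only. Tile calls (20 or more, at 3 or more positions, in every library) were fitted with a quasi-binomial logistic model in R 4.3.3, with dispersions moderated by limma 3.58.1, a quasi-likelihood F test and Benjamini-Hochberg adjustment. In the main fits, also those for differences of steps, the moderation gave 1 dispersion to all tiles (1.46 to 1.60 by fit). The spread of a tile's own replicates thus does not enter its p. Residual degrees of freedom of a group counted only where its libraries together held 1 or more expected calls of the rarer state. This was decided after both the plain fit (0 tiles called) and simulated data had been seen. On simulated data the fit recovered the smaller part of the changed tiles for 72 h against 48 h, and fewer for the differences of steps between intervals or from UHRF1 WT, so counts of called tiles miss many of the size sought.

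Classes came from the serum libraries, and H3K9me2 windows needed 50 or more input calls. Named tiles were the 10 largest falls and 5 largest rises among called, non-overlapping tiles with 40 or more calls in every library, the 5 with most calls among those at 80% or more in all 4, and the 3 windows with most called tiles. Tiles, classes and rules were chosen with earlier results of these data known. Calls made from copies of 1 molecule are not independent. Replicate differences at 48 h and 72 h were not correlated over tiles (Pearson's r -0.00145 over 68676 tiles). This value cannot tell whether equal replicate numbers share a culture or preparation, and the labels do not say. All mapped columns of the expression table for 24 and 72 h were read.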

Additional observations from a re-analysis of the deposited data

Results flagged for a closer look

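Steps of single tiles differed between neighbouring intervals and between lines, each by a test of the difference of steps in log-odds. The rule was an adjusted p under 0.05 (quasi-likelihood F test with 1 dispersion for all tiles) and a separate cutoff of 20 points on group means. The p thus does not test the difference in points. The step from 48 to 72 h differed from that of 24 to 48 h in 1234 tiles and from that of 72 to 96 h in 1325 tiles, of 55777 tested. The E14 step differed from that of UHRF1 WT in 168 of 59139 tiles and from that of UHRF1 KO in 19 of 29963. These counts use the rule for degrees of freedom chosen after the data were seen. With all of them counted they were 897, 919, 26 and 1, and limma on log2 ratios called 0 each time, with 6034, 6589, 4016 and 3193 tiles at an unadjusted p under 0.05. Groups of 2 libraries are too small for a search for single libraries that stand apart.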

How the results depend on the processing

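The mean step of E14 was negative under all 11 alternatives, from -1.85 points with calls pooled over tiles and -2.78 points with 50 calls per library to -6.26 points with 10 calls, and from -5.74 to -5.35 points without single libraries. The count of 3922 called tiles was 6107 with no minimum difference, 1185 with 50 calls per library, 1724 with 5 positions, 2515 with all 12 E14 libraries and 1302 to 2064 without single libraries. It was 0 with limma on log2 ratios. The fit as first planned, with all residual degrees of freedom counted, gave 0 (14760 at an unadjusted p under 0.05), and the rule used here came after it. Alternatives added after the data were seen gave 1400 with the degrees of freedom counted from 20 expected calls, 2799 from 5 and 3530 from 2, and 0 with limma on tiles at 10% or more (11351 unadjusted). The labels do not say whether equal replicate numbers mark pairs of libraries. With the planned replicate block 0 tiles were called lower and 4 higher, chr12:81269001-81269500, chr12:81269501-81270000, chr17:59152501-59153000 and chr17:87524501-87525000. With the block and degrees of freedom counted from 2 expected calls, added later, 3816 were called, 3668 of them among the 3922.

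The step of E14 minus that of UHRF1 WT turned to 0.460 points with 50 calls per library and ran from -0.319 to 0.0317 points without single libraries, turning without E14 72 h replicate 2. That against UHRF1 KO ran from 0.315 to 0.554 points. The H3K9me2 difference of 0.824 points turned to -2.11 points with windows ranked in serum. With classes set at 24 h, the percent kept was 95.1 (under 5%), 93.4 (5% to 20%), 85.8 (20% to 40%) and 83.9 (80% or more). With 50 calls per library it was 95.4 (5% to 20%), 89.8 (20% to 40%), 84.3 (60% to 80%) and 84.1 (80% or more). The block gave 1121, 1183, 114 and 13 tiles for the 4 differences of steps, and 10 points as minimum 1380, 1503, 225 and 22. All residual degrees of freedom, as first planned before the rule used here, gave 897, 919, 26 and 1. Added later, limma gave 0 each time (6034, 6589, 4016 and 3193 unadjusted). Also added later, leaving out single libraries gave 447 to 1019, 352 to 954, 70 to 190 and 5 to 20. Depth limits single tiles: 50 calls or more in each library left 39385 tiles. The cause of these changes was not tested.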
